A study of Ovis aries with 8 samples.

Results

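Genes of the immediate early response, 10 in all, were followed in the liver of 8 preweaning Assaf lambs. They were found by exact gene symbol in the deposited expression table, and all 10 were present among its 27729 genes: FOS, FOSB, JUN, JUNB, JUND, EGR1, ATF3, IER2, KLF4 and KLF6. The 4 ADL lambs had milk replacer ad libitum (192 mL per kg of live body weight), and the 4 RES lambs were restricted to 120 mL per kg. Age at slaughter was 33 to 36 days in both groups, at 10.4 to 12.45 kg in ADL and 7.5 to 8.7 kg in RES. One library of polyadenylated RNA was made from the whole liver tissue of each lamb, so hepatocytes and all other liver cells contribute to each value. The series asks how milk replacer restriction modifies the liver transcriptome.

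Immediate early genes are transcribed within minutes of a signal, without new protein synthesis, and their messages are short-lived. Growth factors, hormones, cytokines and stress act through mitogen-activated protein kinases on serum response factor and other factors already bound at these genes. The products are mostly transcription factors themselves: FOS and JUN proteins pair as AP-1, and EGR1 and the Krüppel-like factors bind GC-rich sites. In the liver of rodents they are known for their rapid induction after partial hepatectomy, as part of the priming of hepatocytes for division.

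Levels are given as TPM, the unit the authors deposited, in which reads are divided by gene length and brought to the same sum in every lamb. The lambs had 15134039 to 17879918 reads on genes. One library stood apart across all genes: on the first principal component (38.1% of the variance) ADL 3 lay at 46.3, the RES lambs between 14.8 and 20.6, and the other ADL lambs between -46.2 and -34.3. The second component (22.2%) placed ADL 3 at -36.5 and RES 4 at -22.8, the lowest positions on it. Results are therefore also given without ADL 3, and without ADL 3 and RES 4 together. Hepatocyte markers summed to 84339 to 154779 TPM, with all 6 present, as the label of the tissue implies. The sign ± gives the SD over the 4 lambs of a group.

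The genes are compact in the authors' annotation. The 9 with an exon count had 1 to 5 exons, against a median of 6 over the 23766 genes of the table that carry one, and 7 of the 10 were shorter than the median gene length of 2281 nt. JUND (chromosome 5, 4635020 to 4635319) is listed as a single exon of 300 nt, so its TPM is scaled to that short model and its level is not compared with those of the others. EGR1 (47156544 to 47158824), JUNB (10764778 to 10766382) and IER2 (10460054 to 10464425) also lie on chromosome 5. JUNB and IER2 are 300352 nt apart there, on the same strand, with 18 genes of the table between them. FOS lies on chromosome 7 (83346063 to 83349261), FOSB on 14 (52035094 to 52040198), ATF3 on 12 (68986824 to 68999708), KLF4 on 2 (15667333 to 15670381) and KLF6 on 13 (43690693 to 43699533). JUN carries no position in the table. For these coordinates no genome build is named in the sources used here.

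No tested member differed between the feeding groups by more than the spread between lambs allows to call. Of 9 members that passed the filter (a mean of at least 1 TPM over the 8 lambs), 0 passed limma's test at an adjusted p of 0.05 and 0 reached an unadjusted p of 0.05. With voom on recovered reads 0 passed as well, and 1 reached an unadjusted p of 0.05. After median-of-ratios rescaling of TPM 0 passed and 2 (JUND and KLF4) reached an unadjusted limma p of 0.05, as did 1743 of 13806 genes. Across all genes 1 of 13812 passed (0.00724%) and 1340 reached an unadjusted p of 0.05 (9.70%). The adjusted p of the members ran from 0.539 (KLF4) to 0.955 (IER2). In 6 of the 9 the mean log2 level was higher in RES, with a median log2 fold change of 0.19 (RES over ADL) beside -0.042 over all tested genes. Without ADL 3 it was higher in RES in 3 of the 9, with a median of -0.042 beside -0.13 over all genes, so this balance rested on that lamb. In 0 of the 9 did all RES values lie on one side of all ADL values, where 4.48% of all genes did. The authors' deposited table lists 386 of 16794 genes (2.30%) at an adjusted p below 0.05. The members' adjusted p in the authors' deposited table ran from 0.428 (JUND) to 0.932 (IER2), and FOSB had none.

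**Figure D1:**
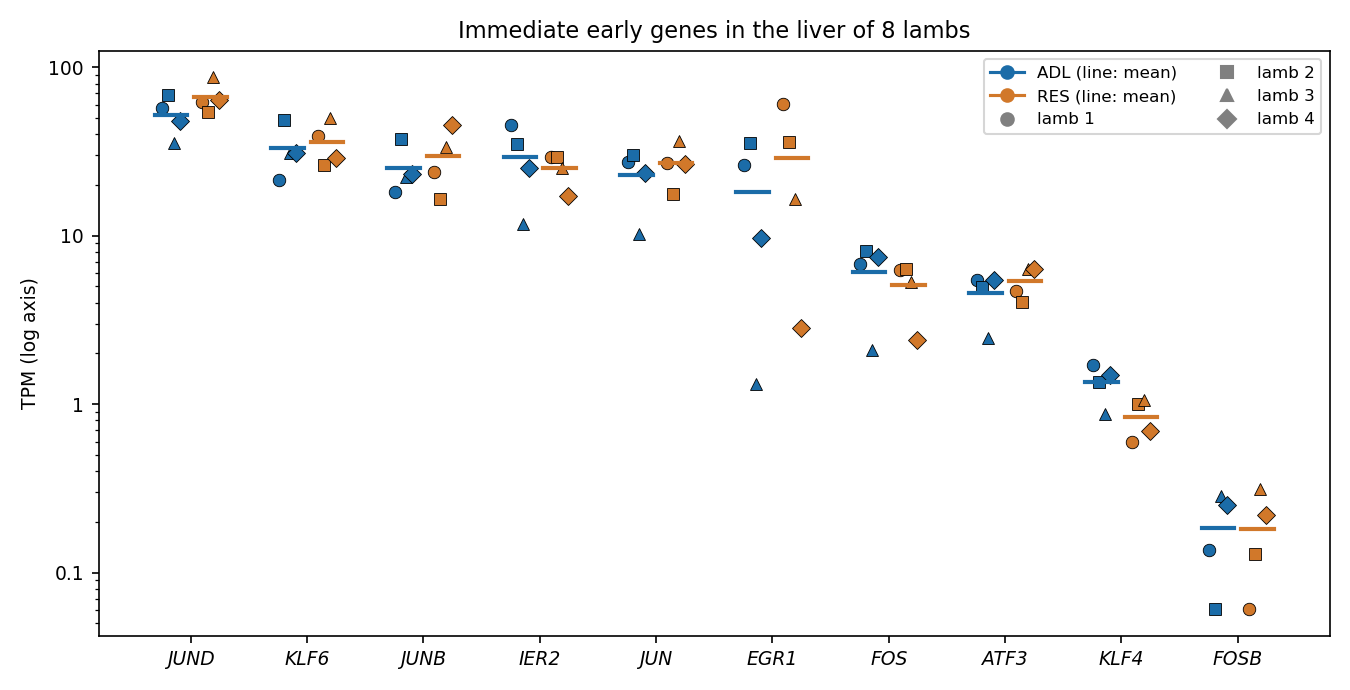
TPM of the 10 immediate early genes (log axis) in each lamb, ordered by mean level, with ADL in blue and RES in orange. Symbols mark the lamb number within each group, which is not taken as a pairing, and horizontal lines are group means. The ADL and RES points overlap in every gene, and EGR1 runs from 1.31 to 60.9 TPM.

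FOS encodes the Fos subunit of AP-1, which binds DNA only when paired, chiefly with a Jun protein. FOS measured 6.81, 8.11, 2.09 and 7.43 TPM in ADL 1 to ADL 4 and 6.24, 6.34, 5.33 and 2.39 TPM in RES 1 to RES 4. ADL 3 and RES 4 were the lowest of their groups, and the other 6 lambs lay within 5.33 to 8.11 TPM. The group means were 6.11 ± 2.73 TPM in ADL and 5.07 ± 1.85 in RES. This is a log2 fold change of -0.18, with an SE of 0.41 (limma adjusted p = 0.916), and the 95% interval runs from a fold of 0.463 to one of 1.67. Without ADL 3 it was -0.59 (adjusted p = 0.225).

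FOSB, a second Fos protein, was barely detected. It had 1 to 5 reads per lamb, or 0.0607 to 0.314 TPM, and 12 reads in all in each group (exact Poisson 95% interval 6.2 to 21.0, which covers counting error only). It did not pass the filter, and a difference between the groups was not detectable at this depth.

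JUN, the most studied Jun subunit, measured 27.4, 30.0, 10.2 and 23.7 TPM in ADL 1 to ADL 4 and 27.0, 17.7, 36.5 and 26.7 TPM in RES 1 to RES 4. ADL 3 was the lowest, and the other 7 lambs lay within 17.7 to 36.5 TPM, with the groups overlapping. The means were 22.8 ± 8.80 TPM in ADL and 27.0 ± 7.67 in RES (limma adjusted p = 0.816 for a log2 fold change of 0.30 with SE 0.34). Without ADL 3 the log2 fold change was -0.042 (adjusted p = 0.924), so the sign rested on that lamb.

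JUNB and JUND are the other Jun proteins, and both can restrain JUN in some cells. JUNB measured 18.2, 37.6, 22.4 and 23.2 TPM in ADL 1 to ADL 4 and 23.9, 16.6, 33.7 and 45.1 TPM in RES 1 to RES 4. In JUNB, ADL 3 lay within its group, below the mean of the 8 lambs, and RES 4, low in FOS, was the highest of all lambs. For JUNB the log2 fold change of 0.19, with SE 0.32, did not pass (limma adjusted p = 0.879), and it was -0.038 without RES 4. JUND measured 57.4, 68.0, 35.4 and 48.3 TPM in ADL 1 to ADL 4 and 62.3, 54.6, 87.2 and 63.6 TPM in RES 1 to RES 4. RES values overlapped those of ADL, with ADL 3 the lowest. The JUND log2 fold change of 0.37 (SE 0.23, limma adjusted p = 0.659) had a 95% interval from a fold of 0.907 to one of 1.84. Without ADL 3 it was 0.20 (adjusted p = 0.516). After median-of-ratios rescaling the JUND log2 fold change was 0.42 (95% interval 0.0063 to 0.84, limma adjusted p = 0.392).

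EGR1, a zinc finger factor that answers to serum response factor, was the most variable member. It measured 26.5, 35.4, 1.31 and 9.67 TPM in ADL 1 to ADL 4 and 60.9, 36.2, 16.5 and 2.82 TPM in RES 1 to RES 4. Both groups thus span high and low lambs, with ADL 3 and RES 4 lowest and RES 1 highest, a 46.3-fold range. The reads behind these values ran from 19 in ADL 3 to 823 in RES 1, so the low lambs are not at the limit of detection. Means were 18.2 ± 15.5 TPM in ADL and 29.1 ± 25.2 in RES, a log2 fold change of 0.71 whose SE was 1.06 (limma adjusted p = 0.86). The 95% interval, from a fold of 0.318 to one of 8.39, leaves a wide range of group differences undecided. Without ADL 3 the log2 fold change was -0.18.

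The SD of log2 EGR1 levels within groups was 1.89, rank 39 from the top among 13812 genes. Taken by group it was 1.94 in ADL and 1.84 in RES. FOS (0.71) and IER2 (0.64) lay at the 92.6 and 90.3 percentiles of this spread, and KLF4 (0.27) at the 39.2 percentile. KLF4 had a mean of only 1.10 TPM, where adding 0.5 before taking log2 narrows the spread. Over the 9 tested members the median SD was 0.53, beside 0.31 over all tested genes, and 8 of the 9 exceeded that value. Among the lists of related genes described below, the median SD ran from 0.25 (upstream kinases and factors) to 0.49 (other Krüppel-like factors). These SDs are on TPM as deposited and include ADL 3, and the spread without that lamb or on rescaled TPM was not examined.

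**Figure D2:**
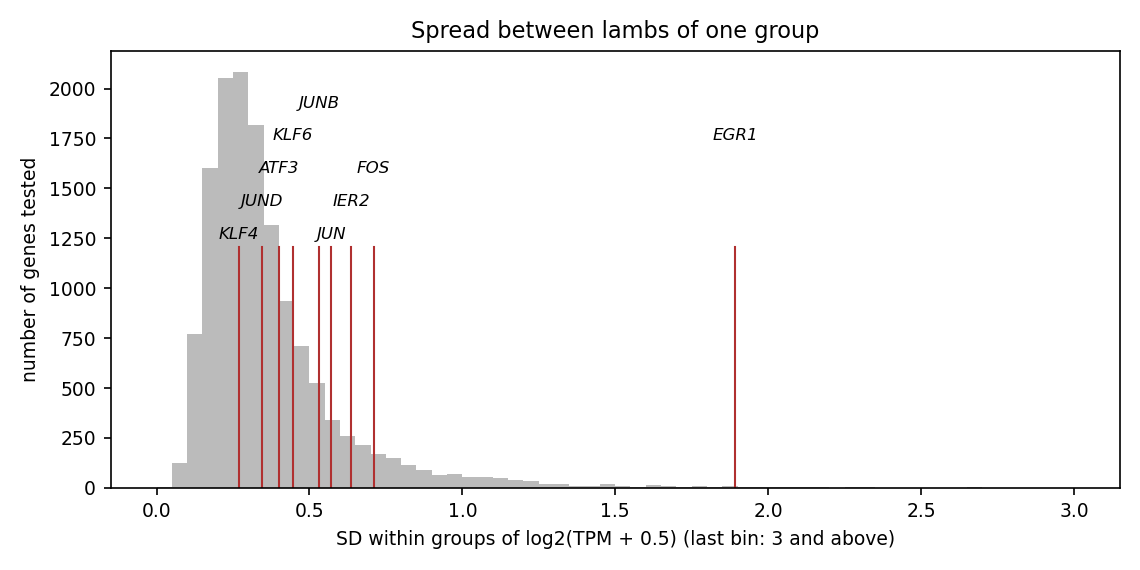
Histogram of the SD within groups of log2(TPM + 0.5) over the 13812 genes tested (grey), with the 9 tested immediate early genes as red lines. EGR1 lies far to the right at 1.89, and KLF4 alone lies below the median of all genes, 0.31. At the low level of KLF4 the added 0.5 narrows the spread.

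IER2 encodes a small nuclear protein of the immediate early response. It measured 45.4, 35.2, 11.8 and 25.2 TPM in ADL 1 to ADL 4 and 29.2, 29.3, 25.1 and 17.1 TPM in RES 1 to RES 4. ADL held both the highest and the lowest lamb, and RES 4 was again the lowest of its group. Between the groups IER2 had a log2 fold change of -0.094, SE 0.37 (limma adjusted p = 0.955), which was -0.47 without ADL 3 (adjusted p = 0.244).

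ATF3, a bZIP factor of stress responses that often acts as a repressor, measured 5.44, 4.96, 2.48 and 5.47 TPM in ADL 1 to ADL 4. In RES 1 to RES 4 it measured 4.69, 4.05, 6.34 and 6.35 TPM. Apart from ADL 3 the lambs lay within 4.05 to 6.35 TPM. The ATF3 log2 fold change of 0.23, SE 0.26 (limma adjusted p = 0.805), became -0.0042 without ADL 3.

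KLF6, a Krüppel-like factor that is widely expressed in liver cells, measured 21.5, 48.7, 31.1 and 30.9 TPM in ADL 1 to ADL 4. In RES 1 to RES 4 it measured 38.9, 26.2, 49.8 and 28.9 TPM. Each group held 1 lamb near 49 TPM, and ADL 3 did not stand out. The groups differed by 0.13 in log2 fold change, within its SE of 0.28 (limma adjusted p = 0.907).

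KLF4, another Krüppel-like factor, came nearest to a group difference among the members but did not pass. It measured 1.71, 1.36, 0.878 and 1.49 TPM in ADL 1 to ADL 4 and 0.597, 0.999, 1.06 and 0.696 TPM in RES 1 to RES 4. ADL 1, ADL 2 and ADL 4 lay above all RES lambs, and ADL 3 lay among RES. The means were 1.36 ± 0.351 TPM in ADL and 0.838 ± 0.226 in RES, a log2 fold change of -0.47 with SE 0.22 (limma adjusted p = 0.539; exact permutation p = 0.0857, two-sided, n = 4 each). Without ADL 3 the log2 fold change was -0.61 (adjusted p = 0.0923), and 0 of 9 members passed there or without ADL 3 and RES 4, where 10.0% and 8.28% of all genes did. The gene has few reads, 7 to 18 per lamb, and its level is at the 2.07 percentile of tested genes, just above the filter. KLF4 is known from endothelial cells, and summed endothelial markers (6 of 6 present) were 195 to 350 TPM in ADL, lowest in ADL 3, and 180 to 265 in RES; the part of these cells in the KLF4 values was not tested. In whole tissue, fewer cells of a type and less RNA per cell cannot be told apart.

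**Figure D3:**
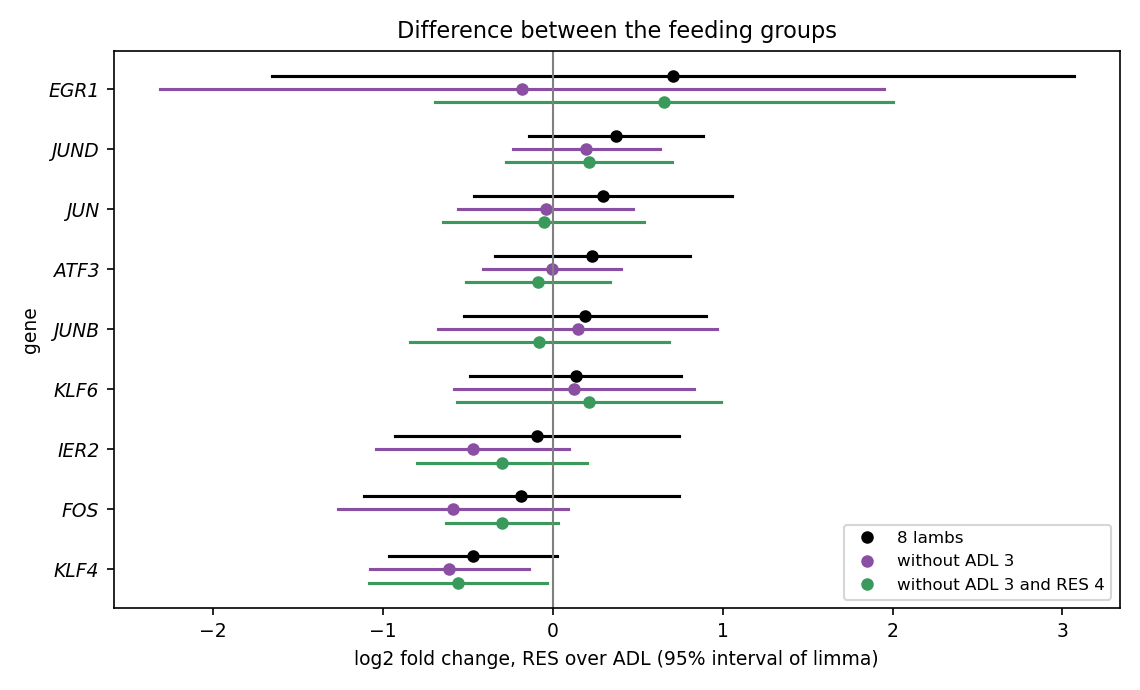
Log2 fold change, RES over ADL, of the 9 tested immediate early genes with 95% limma intervals, in all 8 lambs (black), without ADL 3 (purple) and without ADL 3 and RES 4 (green). Every black interval crosses 0, and EGR1 has the widest, from -1.65 to 3.07.

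By mean level over the 8 lambs KLF6 came first (34.5 TPM), followed by JUNB (27.6), IER2 (27.3), JUN (24.9) and EGR1 (23.7). The ranges of these 5 over the lambs overlap, so their order is not firm. FOS (5.59) and ATF3 (4.97) formed the next pair, with overlapping ranges, then KLF4 (1.10) and FOSB (0.182), which did not overlap each other or that pair. EGR1 is the exception in this order, since ADL 3 (1.31 TPM) lay within the range of KLF4 and RES 4 (2.82 TPM) within those of FOS and ATF3. JUND, at 59.6 TPM on its short model, is left out of the order.

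The low lambs were often the same. ADL 3 lay below the mean of the 8 lambs in 9 of 9 tested members and was the lowest lamb in 6 (EGR1, FOS, IER2, JUN, JUND and ATF3). That lamb is also low in the table as a whole, with 75.9% of tested genes below their mean and 42.6% at their lowest there, while its 10 most abundant genes took 31.0% of all TPM against 18.7 to 26.0% in the other lambs. After median-of-ratios rescaling, which removes the general shift, it stayed the lowest lamb in 6 of the 9, where 21.9% of all genes had their lowest value in it. On that scale it lay below the mean in 6 of the 9 rather than 9, and ADL 4 and RES 2 also did so in 6 each. RES 4 was the lowest RES lamb in FOS, EGR1 and IER2 and the highest RES lamb in JUNB and, by a narrow margin, ATF3. Neutrophil markers (4 of 4 present) summed to 47.4 TPM in ADL 3, while ADL 1, ADL 2 and ADL 4 had 8.93 to 20.9 and RES lambs 20.8 to 32.4. Macrophage markers (7 of 8 names found) summed to 1164 TPM in ADL 3, within the ADL range of 1111 to 1355, and to 1316 to 1527 in RES. The part of these cells in the low values of ADL 3 was not tested.

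**Figure D4:**
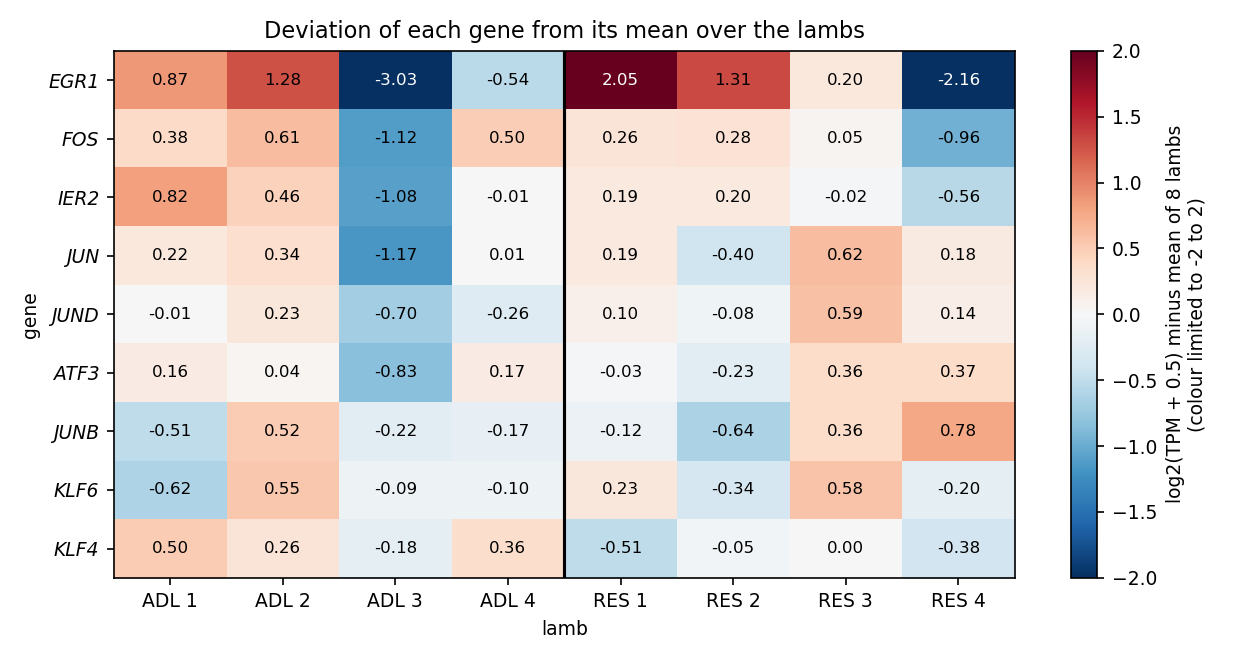
Deviation of log2(TPM + 0.5) of each immediate early gene (rows) in each lamb (columns) from the mean of the 8 lambs, with the value in each cell. ADL 3 is below 0 in all rows, down to -3.03 in EGR1 (after median-of-ratios rescaling, not drawn, it is below 0 in 6). RES 4 is low in EGR1 (-2.16), FOS (-0.96) and IER2 (-0.56) but high in JUNB (0.78).

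Relations between members were examined over the 8 lambs in all 36 pairs of tested members, on log2 values, with exact two-sided tests over 40320 pairings. By Pearson's r 4 pairs passed after adjustment over the 36, and by Spearman's rho 0. JUN and JUND had r = 0.92 (exact p = 0.00228, adjusted 0.0487) and rho = 0.88 (exact p = 0.00724, adjusted 0.261), and r was 0.96 with the 2 lambs of most extreme JUN left out. FOS and IER2 had r = 0.89 (exact p = 0.00541, adjusted 0.0487) and rho = 0.81 (exact p = 0.0218, adjusted 0.392). EGR1 and IER2 had r = 0.87 (exact p = 0.00513, adjusted 0.0487) and rho = 0.74 (exact p = 0.0458, adjusted 0.5). JUN and ATF3 had r = 0.92 (exact p = 0.00469, adjusted 0.0487) and rho = 0.52 (exact p = 0.197, adjusted 0.599). In the latter 3 pairs r was 0.39, 0.37 and 0.35 with the 2 most extreme lambs left out, so on this scale these relations rest on those lambs, ADL 3 among them. On rescaled TPM 0 of the 36 passed, and r was 0.84 for JUN and JUND, 0.84 for FOS and IER2, 0.88 for EGR1 and IER2 and 0.88 for JUN and ATF3 (adjusted p of 0.086 to 0.0891). With the 2 most extreme lambs on that scale left out, r was 0.67, 0.27, 0.54 and 0.62 in the same order. The contrast between JUN and JUND and the other pairs thus did not hold on both scales. For the pairs with JUN the lambs left out also differed, ADL 3 and RES 2 on TPM and ADL 3 and RES 3 on rescaled TPM. The part of the scaling and that of the lambs left out cannot be told apart there. All members share the depth and scaling of a library.

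Age at slaughter was examined after the values had been seen, since the lowest EGR1 values came from the oldest lambs. At 33 days EGR1 measured 26.5 TPM in ADL 1, 60.9 in RES 1 and 36.2 in RES 2. At 35 days it measured 35.4 TPM in ADL 2 and 16.5 in RES 3. At 36 days it measured 1.31 TPM in ADL 3, 9.67 in ADL 4 and 2.82 in RES 4. The 36-day lambs lay below all younger lambs, in both groups. Across the 8 lambs Pearson's r was -0.80 (exact permutation p = 0.0232) and Spearman's rho -0.88 (exact permutation p = 0.0107). Adjusted over the 9 members' relations with age, these exact p-values were 0.209 and 0.0964, so neither passed. Age takes few values, so 3 choices of the 2 lambs most extreme in age were possible, and leaving them out gave r from -0.83 to -0.69. The lambs left out were always 33-day lambs (from ADL 1, RES 1 and RES 2). ADL 3 and RES 4, lowest in EGR1, stayed in, so the relation without them was not tested here.

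In a limma model with group and age, EGR1 had a slope of -1.03 on the log2 scale per day (SE 0.27, unadjusted p = 0.00422), which did not pass over all genes (adjusted p = 0.477). An unadjusted p of 0.05 for age was reached by 3 of the 9 tested members (EGR1, IER2 and JUNB) and by 1014 of all 13812 genes (7.34%), and 0 of all genes passed after adjustment (0%). IER2 had a slope of -0.33 (SE 0.11, adjusted p = 0.602), FOS -0.29 (SE 0.14, adjusted p = 0.692) and JUNB 0.25 (SE 0.10, adjusted p = 0.652). In this model the log2 fold change of EGR1 between the groups was -0.065. The lambs of 36 days were ADL 3, ADL 4 and RES 4, so age and what sets those libraries apart cannot be told apart. The labels give age, and no date or order of slaughter was used.

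**Figure D5:**
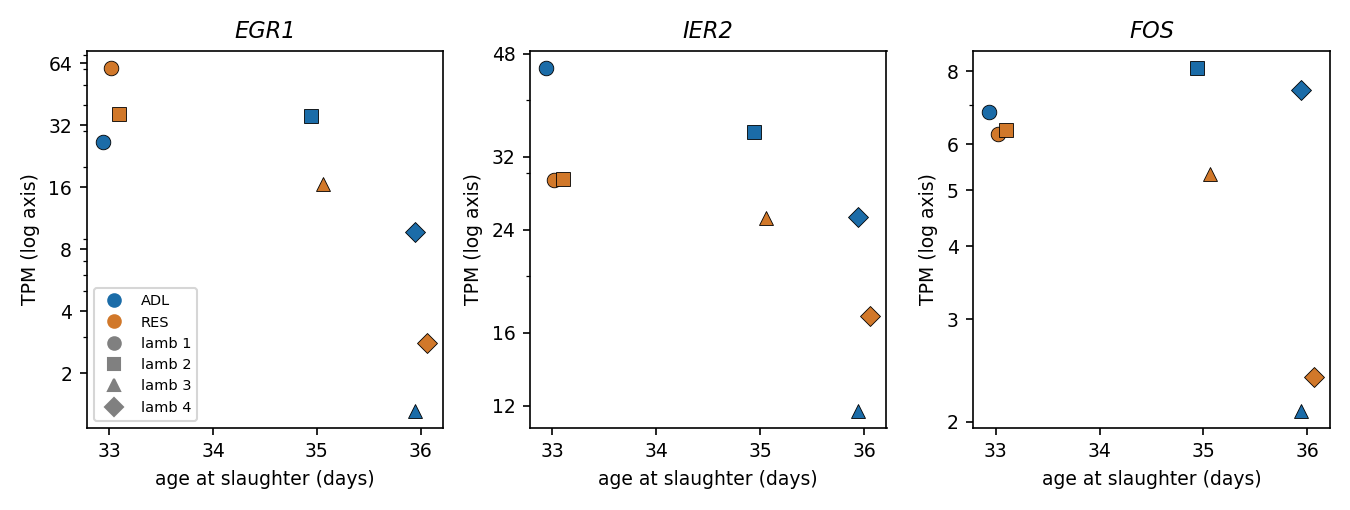
TPM (log axis) of EGR1, IER2 and FOS in each lamb against age at slaughter in days, ADL in blue and RES in orange, with symbols for the lamb number and points of the same age shifted slightly sideways. EGR1 is between 1.31 and 9.67 TPM in the 36-day lambs and between 16.5 and 60.9 TPM in the younger ones, whereas FOS in the 36-day ADL 4 (7.43 TPM) is as high as in young lambs.

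The rest of the pathway was read from lists of known genes. Of the kinases and factors upstream of the immediate early genes, 0 of 23 tested members passed in either direction and 1 reached an unadjusted p of 0.05 (median log2 fold change -0.056). The 4 with the smallest p were the ETS factor ELK3 (log2 fold change -0.37), the kinases RPS6KA5 (-0.45) and BRAF (-0.33) and the receptor EGFR (-0.65), at limma adjusted p of 0.504 to 0.653. EGFR ran from 6.57 to 29.3 TPM in ADL, lowest in ADL 3, and from 8.45 to 10.9 TPM in RES. Without ADL 3, where 1382 of 13815 genes (10.0%) passed, ELK3, ELK4 and EGFR fell by 0.49, 0.55 and 1.04 on the log2 scale (adjusted p = 0.0329, 0.031 and 0.0467).

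Of AP-1 partners and related bZIP factors, 0 of 15 tested members passed and 2 reached an unadjusted p of 0.05 (median log2 fold change 0.069). MAFF, a small Maf protein, had 1.31 to 2.26 TPM in ADL and 2.35 to 4.80 in RES, groups that did not overlap (log2 fold change 0.75, SE 0.24, limma adjusted p = 0.375). The groups did not overlap in 4.48% of all genes, and naming genes by smallest p favours such genes. CREM, which encodes activators and repressors of the cyclic AMP response, measured 13.9, 67.7, 5.39 and 52.2 TPM in ADL 1 to ADL 4 and 5.56 to 10.2 TPM in RES (log2 fold change -1.51, SE 0.68, limma adjusted p = 0.519). ADL 2 and ADL 4 were thus far above all other lambs. CREB1, the main cyclic AMP response factor, had -0.30 (adjusted p = 0.689). Without ADL 3, CREM fell by 2.17 (adjusted p = 0.0361) and CREB1 by 0.50 (adjusted p = 0.0295). These were 2 of 15 tested members, where 1382 of 13815 genes (10.0%) passed.

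Of 36 other immediate early and early response genes tested, 0 passed, and 4 reached an unadjusted p of 0.05 (median log2 fold change -0.06). GADD45B, a stress protein of growth arrest, had 13.0 to 35.7 TPM in ADL and 6.82 to 10.7 in RES. These groups did not overlap, as in 4.48% of all genes, and the choice by smallest p favours this. The GADD45B log2 fold change of -1.26, SE 0.30, did not pass over all genes (limma adjusted p = 0.28). GADD45A had -0.72 (adjusted p = 0.508), the liver bZIP factor CEBPB -0.89 (adjusted p = 0.504) and the matrix protein gene CYR61 0.47 (adjusted p = 0.505). Without ADL 3, GADD45B fell by 1.40 (adjusted p = 0.0324) and RHOB, a small GTPase, by 0.74 (adjusted p = 0.0419). These were 2 of 36 tested, where 1382 of 13815 genes (10.0%) passed. The median SD within groups was 0.46 in this list, beside 0.53 in the 9 members and 0.31 over all genes.

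Of 11 other Krüppel-like factors tested, 0 passed with or without ADL 3 (without it, 10.0% of all genes did). In the 8 lambs 1 reached an unadjusted p of 0.05 (median log2 fold change -0.063). KLF5 had 1.56 to 4.54 TPM in ADL and 0.64 to 1.37 in RES, without overlap (log2 fold change -1.12, SE 0.31, limma adjusted p = 0.296). KLF15, a factor of amino acid and glucose metabolism, had 18.2 to 20.7 TPM in ADL and 22.3 to 26.5 in RES, also without overlap (log2 fold change 0.29, adjusted p = 0.544). Groups without overlap occurred in 4.48% of all genes, and KLF5 and KLF15 were named for their small p, which favours this. The log2 fold changes of KLF13 and KLF9, -0.67 and 0.39, came with adjusted p of 0.545 and 0.645.

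Of 13 EGR1 partners and later AP-1 or EGR1 targets tested, 0 passed with or without ADL 3 (without it, 10.0% of all genes did). In the 8 lambs 2 reached an unadjusted p of 0.05 (median log2 fold change 0.096). PLAU, a plasminogen activator, had 7.58 to 8.71 TPM in ADL and 9.39 to 11.6 in RES (log2 fold change 0.30, adjusted p = 0.527). For the haem oxygenase HMOX1 the log2 fold change was 0.55 (adjusted p = 0.494). The cyclin gene CCND1 ran from 10.8 to 49.0 TPM in ADL and from 15.9 to 105 TPM in RES (limma adjusted p = 0.566 for a log2 fold change of 1.23).

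Other genes with a like pattern over the 8 lambs were found by the mean absolute difference of log2 deviations. Nearest to FOS were SLC27A2, an acyl-CoA synthetase of very long chain fatty acids (0.12), ISOC1 (0.14), LOC105614892 (0.15), SMYD5 (0.17) and PTP4A1 (0.19), where FOS itself deviated by 0.52 on average. SLC27A2 measured 480, 438, 169 and 406 TPM in ADL 1 to ADL 4 and 403, 380, 342 and 181 TPM in RES 1 to RES 4, so ADL 3 and RES 4 were lowest, as in FOS; the choice by likeness builds such sharing in. Nearest to EGR1 were TEX33 (0.64), LOC105606017 (0.69), FGF21 (0.71), LOC101105368 (0.75) and SLC2A5 (0.79), against an average deviation of 1.43 in EGR1. FGF21, a liver hormone of the fasting response, measured 51.0, 21.2, 10.3 and 10.8 TPM in ADL 1 to ADL 4 and 57.8, 54.8, 42.0 and 5.39 TPM in RES 1 to RES 4. RES 4, ADL 3 and ADL 4 were the lowest in FGF21, whereas LOC101105368 was highest in ADL 4 (33.0 TPM). Nearest to JUN were WFDC3 (0.11), HNRNPD (0.14), C1H1orf54 (0.15), TRIB2 (0.15) and PDGFRB (0.17), and nearest to ATF3 were SETD4 (0.078), POLR3C (0.11), C1H1orf54 (0.11), PPP2R5B (0.12) and SF1 (0.12).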

How the data were processed

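Whole liver RNA of 8 lambs, 1 library each, was sequenced from polyadenylated RNA. The submitters' processing notes name DESeq2 1.12.4 and bcl2fastq 1.8.4. Aligner, read counter and genome build: not given in the sources used here. The deposited table gives the authors' TPM per lamb and gene length, and the authors' comparison with its baseMean signal, log2 fold change and error, test score, p-value and adjusted p-value. TPM times length gave whole reads in 100% of values (tolerance 0.001), which set the depth. Precision is limited by 4 lambs a group.

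Genes with a mean of at least 1 TPM were fitted with limma 3.58.1 in R 4.3.3 (trended prior, two-sided) on log2(TPM + 0.5), RES over ADL; Benjamini-Hochberg adjustment was over all genes tested, with a threshold of 0.05. The scale understates changes of low genes. Intervals of fold changes are 95%. The procedure was tested on simulated reads. Exact permutation tests used 70 assignments of lambs. Alternatives were other pseudocounts (0.1, 1), filters, scalings, lamb number as a block, age, sample weights, voom and leaving out lambs.

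Members and lists were chosen with earlier results of these data known. Every member is named, with the 4 genes of smallest p in each list (some are not reported here) and the 5 genes most like FOS, JUN, EGR1 and ATF3; RHOB, ELK4 and the genes named for age were chosen after their values were seen. List names were matched by table symbol, reference symbol or alias; CEBPD and CD163 were not analysed here. KLF2 and KLF10 are in 2 lists. Reads of overlapping or similar genes cannot be separated here.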

Additional observations from a re-analysis of the deposited data

How the results depend on the processing

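The count of genes that passed in the 8 lambs, 1 of 13812, became 0 without the filter on low values, with median-of-ratios rescaling and with voom on recovered reads, and 1969 with sample quality weights; the cause was not tested. Leaving out 1 lamb gave 0 to 1382, the latter without ADL 3 (49 without RES 4), and leaving out ADL 3 and RES 4 together, chosen after seeing the data, gave 1145. No member passed in the 8 lambs or under any alternative listed here, and the smallest adjusted p of a member was 0.0613. Of 178 alternative values of the members' log2 fold changes, 163 kept their sign and side of the threshold and 15 changed sign, 10 of them with 1 lamb left out. The other filters, lamb number as a block and the permutation test leave the log2 fold change as it was. Their values could not change sign, so the count of 163 overstates how stable the signs are. With 1 lamb left out the log2 fold change ran from -0.59 to 0.11 in FOS, -0.042 to 0.48 in JUN, -0.038 to 0.43 in JUNB, -0.18 to 1.54 in EGR1, -0.0042 to 0.35 in ATF3, -0.47 to 0.16 in IER2 and -0.049 to 0.34 in KLF6. The sign changed in EGR1 with age as a covariate (-0.065), in ATF3 with sample quality weights (-0.013), and without ADL 3 and RES 4 in JUN (-0.053), JUNB (-0.079) and ATF3 (-0.087). JUND (0.20 to 0.51 with 1 lamb left out) and KLF4 kept their signs throughout. With lamb number as a block 0 genes and 0 members passed. Correlations of deviations between lambs of the same number were 0.11, -0.0014, -0.044 and 0.16, and those between other numbers ran from -0.28 to 0.21. Such values cannot decide whether the numbers pair the lambs, and the main test treats the groups as unpaired. Depth limits FOSB and KLF4 (1 to 5 and 7 to 18 reads per lamb).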

Other observations

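Slopes on age at slaughter were also read in the other lists, after the values had been seen. Of 36 other immediate early and early response genes tested, 9 reached an unadjusted limma p of 0.05 for age (25%), 7 lower and 2 higher in older lambs, beside 7.34% of all genes; 0 passed over all genes (smallest adjusted p = 0.356). The 7 lower were ID1, DUSP6, HES1, KLF10, IER3, ID2 and DUSP2, and the 2 higher were SOCS3, the feedback inhibitor of cytokine signalling, and SGK1, a kinase induced by glucocorticoids. That level was also reached by 4 of 13 EGR1 partners and targets (30.8%), with CCND1, NAB2 and F3 lower and SPP1 higher in older lambs. Of 11 other Krüppel-like factors 3 reached it (27.3%), with KLF11 and KLF10, which is in both lists, lower and KLF16 higher. It was reached by 0 of 23 upstream kinases and factors and by 0 of 15 AP-1 partners. ADL 3 and RES 4 are both 36 days old, so their part in these slopes cannot be told apart from age.

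Summed cholangiocyte markers (4 of 4 present) were 19.2 to 46.2 TPM in ADL and 7.63 to 18.6 in RES, without overlap, and 0 of the 4 genes passed limma's test. Groups without overlap occurred in 4.48% of all genes, and a sum does not show how each marker behaved. Stellate cell markers (7 of 7) were 380 to 521 TPM in ADL and 269 to 420 in RES, and lymphocyte markers (5 of 5) 11.9 to 21.2 and 16.5 to 24.5. On TPM, in no member did the outermost lamb of a group of 4 stand apart by Dixon's criterion (0 of 20 groups of values). The result holds for TPM only. Log2 values, the scale of the main test, were not put to this criterion, so whether a lamb stood apart on them was not tested. As log2 deviations, ADL 3 lay at -0.83 in ATF3, with the other ADL lambs at 0.037 to 0.17. In FOS it lay at -1.12, with the others at 0.38 to 0.61. In ATF3 and FOS it thus lay farther from the nearest other ADL lamb than those lambs lay from each other. In JUNB and KLF6 it lay among them.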
